A study of Mus musculus with 31 samples.

Results

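The genes described here are 10 core genes of the integrated stress response, Atf4, Atf5, Ddit3, Trib3, Chac1, Asns, Sesn2, Ddit4, Ppp1r15a and Ppp1r15b, taken by their symbols from the 41255 rows of the count tables. All 10 symbols were found in both tables, and 9 of them passed the filter of a mean of at least 10 normalized reads. Chac1 did not pass. The genes were chosen for their function and not for their values here, although results of these data were known when they were chosen.

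The cells were Ba/F3, a mouse lymphoid line that depends on interleukin 3. In every clone used here, WT clones included, the endogenous Rpl10 was lowered with an shRNA and human RPL10 was supplied from a retrovirus, either as WT or as R98S, the arginine-to-serine change found in T-cell acute lymphoblastic leukemia. There were 3 monoclonal clones for each genotype, R98S clones 11, 13 and 35 and WT clones 28, 29 and 36, each cultured under replicate numbers 1 to 3. Total mRNA was sequenced from 9 R98S and 8 WT cultures, and polysomal RNA, which is mRNA carrying at least 2 ribosomes, from 8 R98S and 6 WT cultures. Both fractions were present for 14 cultures, 8 R98S and 6 WT. The polysomal-to-total ratio of a culture is called its translation efficiency (TE) below. Since each genotype rests on 3 clones, the p-values describe the spread between these cultures, and clone and genotype are separated only as far as 3 clones a side allow.

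The integrated stress response starts when one of 4 kinases phosphorylates the initiation factor eIF2 (the kinase genes are Eif2ak1, Eif2ak2, Eif2ak3 and Eif2ak4). Bulk translation then falls, while a few mRNAs with short upstream reading frames, of which Atf4 is the textbook case, are translated better. ATF4 protein binds C/EBP-ATF response elements (CARE) at its target genes, among them Asns, Trib3, Chac1, Sesn2 and Ddit4, and often acts together with the related factors CHOP (Ddit3) and ATF5. Ppp1r15a and Ppp1r15b encode the subunits that direct protein phosphatase 1 to eIF2 and so end the response. In lymphoid and leukemic cells the pathway is best known for the supply of asparagine and other amino acids.

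Promoter sequences are shown for the genes in which a search for 3 motifs found a match, because ATF4 and related factors bind elements with these letters. The sequences come from the promoter table of RefSeq, build GRCm38.p6, which held 9 of the 10 genes in windows of 300 bases, 250 before and 50 after the start. The motifs were the CARE core TGATGNAA, read on both strands, the cAMP response element TGACGTCA, which reads the same on both strands, and the ER stress response element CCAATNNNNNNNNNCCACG, read on both strands. The CARE core is the element bound by ATF4 with a C/EBP partner, and Trib3, Chac1 and Asns held 1 match each. Each site is printed below as 30 bases, 5′ to 3′ on the strand of the gene, with the motif in capitals.
Chac1: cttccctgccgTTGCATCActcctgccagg
Trib3: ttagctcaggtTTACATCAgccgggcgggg
Asns: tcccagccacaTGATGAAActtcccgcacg
Ppp1r15a: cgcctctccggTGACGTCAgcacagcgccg

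The Chac1 site lies at chr2:119351038-119351067 on the plus strand, and its motif, the CARE core read on the opposite strand, begins 193 bases before the RefSeq start. The Trib3 site lies at chr2:152344028-152344057 on the minus strand, with the core on the opposite strand from base 15 of the RefSeq transcript. The Asns site lies at chr6:7693214-7693243 on the minus strand, with the core on the strand of the gene from 23 bases before the RefSeq start, which places the site within the GENCODE span of the gene given below. The Ppp1r15a site lies at chr7:45526262-45526291 on the minus strand, and its cAMP response element, known to be bound by CREB and other ATF family factors, begins 12 bases before the RefSeq start.

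In all promoters of the same length, 4.51% of 27025 genes held the CARE core, 2.03% held the cAMP response element and 0.137% held the ER stress response element. None of the 3 motifs was found in the windows of Atf4, Atf5, Ddit3, Sesn2 and Ddit4. A match is a description of letters and not a site shown to be used.

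The 5′ leaders, read from the annotated transcripts of GENCODE M21, differed among the 10 genes. Atf4 had a leader of 594 bases with 3 upstream start codons, 475, 196 and 97 bases before the coding sequence. Their reading frames had 36, 3 and 59 codons, and the last of them ran into the coding sequence. Atf5 had 2 upstream start codons in a leader of 373 bases, with frames of 3 and 58 codons starting 252 and 121 bases before the coding sequence, the second overlapping it. Ddit3 had 2 upstream start codons that share 1 closed frame, of 34 codons from the first and 31 from the second. Asns likewise had 2 that share 1 closed frame, of 14 and 13 codons, and Sesn2 had 1 closed frame of 22 codons. Ppp1r15a had 3 closed frames of 45, 34 and 26 codons, and Ppp1r15b had 3 of 2, 8 and 51 codons in a leader of 604 bases. Trib3, Chac1 and Ddit4 had none. Among 9811 expressed protein-coding genes, 49.9% had an upstream start codon, 27.4% had at least 2 and 15.8% had a frame that overlapped the coding sequence.

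On the mouse genome (mm10), Atf4 occupied chr15:80255184-80257541, Atf5 chr7:44812256-44816658, Ddit3 chr10:127290774-127296288, Trib3 chr2:152337422-152344032 and Chac1 chr2:119351229-119354381. Asns occupied chr6:7675169-7693254, Sesn2 chr4:132492032-132510501, Ddit4 chr10:59949669-59951834, Ppp1r15a chr7:45522916-45526268 and Ppp1r15b chr1:133131143-133139783. Reads were counted over the exons of each gene. Of the exon bases, 11.4% of Ppp1r15b overlapped a gene on the opposite strand (Gm26616), 4.73% of Ddit3 overlapped Mars and 4.11% of Atf5 overlapped Nup62. The library kit keeps strand, but the strand setting of the counting is not given in the sources used here.

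The 31 libraries held between 8831180 and 22059792 counted reads. In total mRNA, the libraries of R98S clones 13 and 35 under number 2 lay apart from the other R98S libraries. Over the 3369 genes called between the genotypes they stood 37.7% and 36.1% of the way from the R98S mean to the WT mean, whereas the other R98S libraries stood between -17.1% and 3.38%. The member counts and the gene lists below that rest on total mRNA are therefore also given without them, and single members where their value moved. In polysomal RNA the same cultures did not lie apart. Over the 1449 genes called there they stood at -5.74% and 10.7%, and the other R98S libraries between -5.61% and 8.50%. The TE of these cultures thus sets a total mRNA library that stood toward WT against a polysomal library that did not. The WT clone 36 library of total mRNA under number 1 was left out of the study, having clustered with the R98S libraries, and is not analysed here. Mouse Rpl10 ranged from 901.4 to 2984 normalized reads in R98S and from 620.3 to 5715 in WT total mRNA, but reads of the human RPL10 transgene can align to it, so that it does not check the knockdown. Of 9 genes listed as Ba/F3 markers, 6 were expressed, while the B-lineage factors Ebf1 and Pax5 were at or near 0. The summed level of the list was 110175 to 222355 in R98S and 56840 to 102238 in WT total mRNA, a sum made up mostly of the interleukin 3 receptor genes Csf2rb and Csf2rb2, near-identical copies among which reads could be split. Of the 6 expressed, 3 were called higher and 1 lower in total mRNA, where 30.3% of all genes were called. The list did not move as 1. Ptprc had a mean of 3989 in R98S and 5587 in WT, and Il3ra 664.0 and 595.1. Of the other lists, 2 of 5 T cell markers and 2 of 5 myeloid markers reached a mean of 10, with summed levels of 36.5 to 101.9 and 2.76 to 411.2 in R98S against 13.4 to 210.8 and 33.0 to 212.6 in WT. The erythroid sum was 1823 to 4572 in R98S and 2319 to 7084 in WT with 3 of 4 markers expressed, and none of 4 epithelial and stromal markers reached a mean of 10, Epcam being at 0 in total mRNA. Single markers differed between the genotypes in total mRNA. The T cell receptor subunit Cd3d was higher in R98S by 1.85 and Cd3g lower at -3.06 (limma adjusted p = 0.000221 and 0.00887). The myeloid lysozyme Lyz2 and the hemoglobin gene Hba-a1 were lower at -2.66 and -3.41 (adjusted p = 0.0132 and 0.000484), and the call of Lyz2 was lost without the number 1 or the number 3 cultures (adjusted p of up to 0.192). With the replicate block all 3 expressed erythroid markers were called lower. The part of these marker differences in the results below was not tested, and in bulk RNA fewer cells with an mRNA cannot be told apart from less mRNA in each cell.

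Among the members, Atf4 was the most abundant mRNA per length of exon. Its median in total mRNA was 2392 normalized reads per kilobase in R98S and 3059 in WT, and in polysomal RNA it was 3604 and 4208. In R98S total mRNA it was followed by Ppp1r15b at a median of 769.5 per kilobase, and every library of Atf4 lay above every library of Ppp1r15b. In WT total mRNA the next gene was Asns at 1502 per kilobase, whose libraries overlapped those of Atf4. Asns and Ppp1r15b formed the second and the third level in polysomal RNA of both genotypes, each without overlap with its neighbour above.

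The other tested members were lower. Atf5 was the lowest of them per kilobase in R98S, with medians of 62.1 in total and 53.8 in polysomal RNA. In WT total mRNA every library of Ppp1r15b also lay above every library of Sesn2. In WT, Atf5 was lowest in total mRNA with a median of 144.9 per kilobase, and Ddit3 was lowest in polysomal RNA with 88.4. From Sesn2, Ddit4 and Ppp1r15a down to Trib3, Ddit3 and Atf5, neighbours in the order overlapped in each genotype and fraction. Chac1, which encodes a glutathione-degrading enzyme and is one of the most inducible ATF4 targets in other cells, had 0 reads in all 31 libraries. A count of 0 allows up to 3 reads, which is 1.81 to 5.14 normalized reads depending on the library, and this limit covers counting error only.

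The first question was whether the mRNA levels of the pathway differed between R98S and WT cells. In total mRNA, Atf5 and Trib3 were lower in R98S cells, with log2 differences of R98S minus WT of -1.59 ± 0.40 (SE) and -1.49 ± 0.48. The 7 other tested members did not pass the test, and Atf4 itself differed by -0.11 ± 0.28. In the limma test with Benjamini-Hochberg adjustment over 11133 genes, 2 of 9 members were called lower and 0 higher, where an adjusted p under 0.1 is a call. Of all genes tested, 30.3% were called in either direction and 15.8% were called lower. The difference was below 0 for 8 of 9 members, and their median was -0.50 beside 0.0035 for all genes. Without the number 3 cultures the median was -0.18 with 5 of 9 below 0, and within number 1 it was 0.0036 with 4 of 9 below 0. Without the number 2 libraries of R98S clones 13 and 35, Atf5 at -1.59 and Trib3 at -1.50 were again the members called, with adjusted p of 0.0156 and 0.048 in limma, where 17.7% of all genes were called lower. Asns was then at -0.36 ± 0.38 (adjusted p = 0.52), Atf4 was at 0.0070 and the other members kept their direction.

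**Figure D1:**
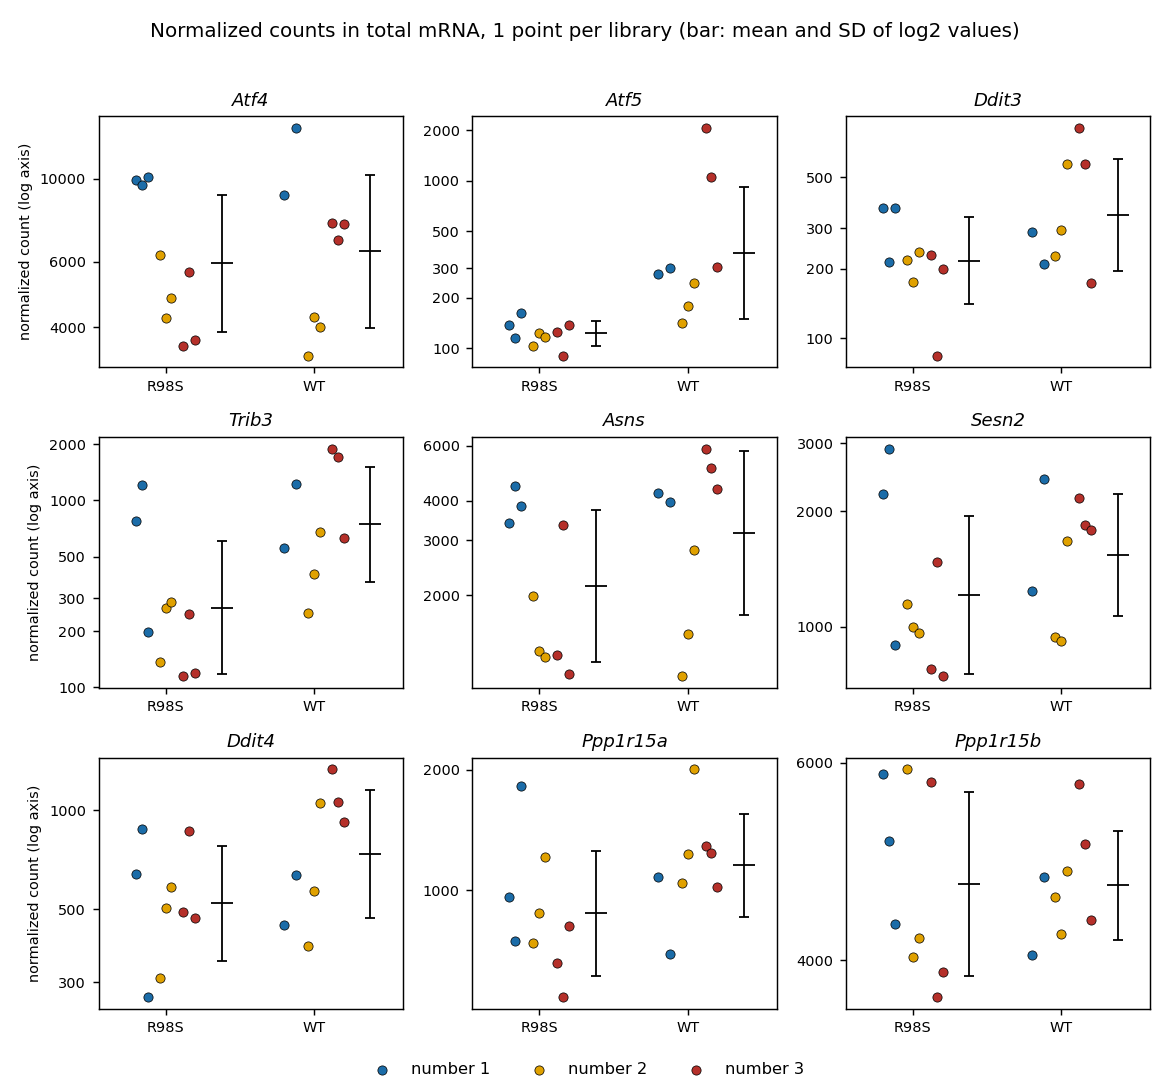
Normalized read counts in total mRNA (log axis) for the 9 tested members in 9 R98S and 8 WT libraries, 1 point per library coloured by replicate number, with bars for the mean and SD of the log2 values. Atf5 libraries of R98S lie at 90.3 to 163.3 and those of WT at 140.6 to 2071, whereas Ppp1r15b lies at 3706 to 5917 in both genotypes together.

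Atf5, a transcription factor of the same family as ATF4, had 90.3, 123.8 and 163.3 normalized reads as the lowest, median and highest R98S library of total mRNA. The WT values were 140.6, 288.7 and 2071. Of the 9 R98S libraries 8 lay below every WT library, and the WT clones 28 and 29 under number 3 were far above the rest at 2071 and 1053. The fold was 3.02 on the log2(value + 1) scale, with a 95% interval of the log2 difference from -2.43 to -0.76 and a limma adjusted p of 0.00778. Without the number 3 cultures the difference was -0.81 (adjusted p = 0.0354), and in edgeR and DESeq2 on the recovered reads it was -2.21 in both.

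Atf4 had 3559, 5640 and 10108 normalized reads in R98S and 3363, 7214 and 13696 in WT. The ranges coincided, and the highest libraries of both genotypes were those of number 1. The 95% interval of the log2 difference ran from -0.70 to 0.48 (limma adjusted p = 0.823). Ddit3, which encodes CHOP, a factor linked to cell death under lasting stress, had 84.1, 218.3 and 368.1 in R98S and 173.5, 291.8 and 818.3 in WT. Its 3 highest libraries were WT, but the groups overlapped, and the difference of -0.66 ± 0.31 had an adjusted p of 0.139 in limma. Both count models applied to the recovered reads called it lower, with adjusted p of 0.0927 in edgeR and 0.0523 in DESeq2. Limma with the replicate block did not call it (adjusted p = 0.126). Without the number 3 cultures the difference was -0.23 (limma adjusted p = 0.648).

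Trib3 encodes a pseudokinase that is induced by ATF4 and CHOP and restrains them in turn. It had 114.4, 246.8 and 1215 normalized reads in R98S and 248.6, 654.8 and 1893 in WT. Of the R98S libraries 5 of 9 lay below every WT library, and the 2 highest R98S values, 1215 and 777.5, came from clones 13 and 11 under number 1. The fold was 2.80, with a 95% interval of the log2 difference from -2.49 to -0.48 and a limma adjusted p of 0.0322. The call was lost without the number 3 cultures (-0.61, adjusted p = 0.536), without R98S clone 35 (adjusted p = 0.126) and without WT clone 29 (adjusted p = 0.118).

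Asns, the enzyme that makes asparagine, had 1123, 1995 and 4469 normalized reads in R98S and 1102, 4109 and 5873 in WT. The groups overlapped over most of their range, and the difference of -0.56 ± 0.36 had a limma adjusted p of 0.281. With the replicate number as a block it was -0.64 ± 0.26 and was called (adjusted p = 0.0708), which made 3 of 9 members lower where 38.4% of all genes were called and 19.9% were called lower. Without the number 3 cultures the difference was 0.013 (adjusted p = 0.990), and within numbers 1 and 2 it was -0.08 and -0.15.

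Sesn2 and Ddit4 (REDD1) both restrain mTORC1. Sesn2 had 744.0, 997.5 and 2907 normalized reads in R98S and 918.1, 1733 and 2418 in WT. Ddit4 had 270.5, 505.8 and 880.9 in R98S and 387.4, 778.4 and 1332 in WT. The groups overlapped for both genes, with differences of -0.35 ± 0.27 for Sesn2 (limma adjusted p = 0.381) and -0.50 ± 0.27 for Ddit4 (adjusted p = 0.195).

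The phosphatase subunits differed from each other in their spread. Ppp1r15a (GADD34), which is induced by stress, had 541.8, 813.0 and 1823 normalized reads in R98S and 693.5, 1157 and 2000 in WT, with a difference of -0.40 ± 0.21 (limma adjusted p = 0.186). Without the number 1 cultures that difference was -0.70 and was called (limma adjusted p = 0.0288). Without the number 2 or the number 3 cultures it was -0.29 or -0.18 and was not called (adjusted p = 0.518 and 0.734). Ppp1r15b (CReP), the subunit made in unstressed cells, had 3706, 4305 and 5917 in R98S and 4041, 4651 and 5743 in WT, and its difference was 0.00 ± 0.11 with a 95% interval from -0.23 to 0.24. Ppp1r15b had the narrowest interval of the members. Its standard error stood at percentile 22.6 of all genes, whereas those of the other 8 tested members stood between percentiles 74.6 and 96.5.

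In polysomal RNA the question was which of these mRNAs were loaded with ribosomes at different levels. Atf5, Trib3 and Asns were lower in R98S polysomes, with log2 differences of -1.24 ± 0.19, -1.14 ± 0.18 and -0.60 ± 0.19. Limma called 3 of 9 members lower and 0 higher, where 13.5% of 10707 genes were called in either direction and 5.87% were called lower. The median difference of the members was -0.18, beside -0.02 for all genes, and 6 of 9 were below 0. With the replicate block the same 3 members were called, where 30.9% of all genes were called and 15.7% were called lower. The median of the members was then -0.11, beside -0.014 for all genes, and 8 of 9 were below 0. The spread between libraries was smaller than in total mRNA for Atf5, Trib3 and Asns.

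**Figure D2:**
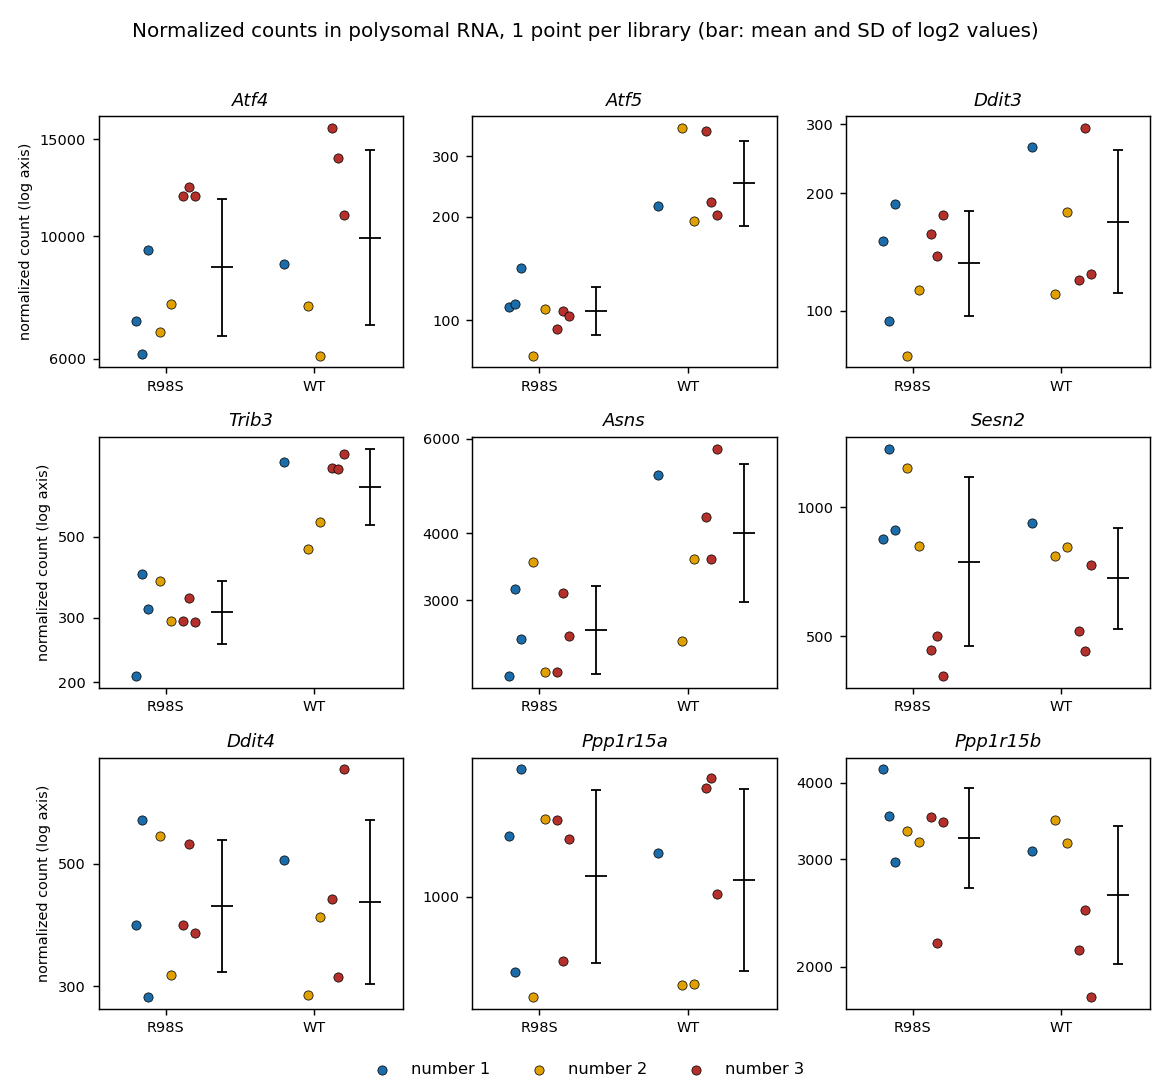
Normalized read counts in polysomal RNA (log axis) for the 9 tested members in 8 R98S and 6 WT libraries, 1 point per library coloured by replicate number, with bars for the mean and SD of the log2 values. The R98S and WT libraries are separate for Atf5 (78.9 to 141.9 against 194.7 to 362.7) and Trib3 (207.5 to 394.6 against 463.9 to 839.5).

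Atf5 had 78.9, 107.2 and 141.9 normalized reads in R98S polysomes and 194.7, 217.7 and 362.7 in WT polysomes. All 8 R98S libraries lay below all 6 WT libraries. The fold was 2.35 and the limma adjusted p was 0.00051. Trib3 had 207.5, 306.2 and 394.6 in R98S and 463.9, 768.2 and 839.5 in WT, again without overlap. Its fold was 2.20 and its adjusted p was 0.000671. Atf5 and Trib3 were both called in each of the 33 alternative settings, and of all 10707 genes 1.92% had every R98S library below every WT library. The same full separation was seen for 1.46% of 11133 genes in total mRNA and for 0 of the 9 members there.

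Asns had 2163, 2555 and 3542 normalized reads in R98S polysomes and 2518, 3934 and 5748 in WT polysomes. Of the WT libraries 5 of 6 lay above every R98S library, and the lowest WT value was that of clone 28 under number 2. The limma adjusted p was 0.0664, and 18 of 33 alternative settings called it. Among the settings that did not were the clone means (adjusted p = 0.169), the fit without the number 1 cultures (0.379) and the fit without the number 3 cultures (0.284).

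Atf4 had 6130, 8499 and 12292 normalized reads in R98S polysomes and 6086, 9922 and 15731 in WT polysomes. The 6 highest of its 14 libraries were the 6 of number 3, in both genotypes. The genotypes differed by -0.18 ± 0.25 (limma adjusted p = 0.767). Ddit3 had 76.9, 144.5 and 187.2 in R98S and 110.5, 151.4 and 293.8 in WT, a difference of -0.35 ± 0.27 (adjusted p = 0.525).

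The 4 remaining members overlapped between the genotypes in polysomal RNA. Sesn2 had a median of 827.1 normalized reads in R98S and 751.9 in WT, Ddit4 387.4 and 416.2, and Ppp1r15a 1177 and 1068. Their differences were 0.13, -0.02 and 0.01 on the log2 scale, with 95% intervals from -0.47 to 0.74, from -0.52 to 0.48 and from -0.40 to 0.43. Ppp1r15b had 2187, 3390 and 4201 in R98S and 1785, 2788 and 3471 in WT, and its difference of 0.31 ± 0.18 had a limma adjusted p of 0.367.

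The TE of each member was then compared over the 14 cultures that had both fractions. No member passed the test. Limma called 0 of 9 members, where 4 of 10627 genes (0.0376%) were called and 633 had an unadjusted p under 0.05, none of them a member. The edgeR and DESeq2 fits of the recovered reads also called 0 of 9 members. With the replicate block the count was 0 of 9 as well, where 0.47% of genes were called (50 of 10627). Without the number 2 cultures of R98S clones 13 and 35 limma called 0 of 9 again, with Sesn2 at 0.26 ± 0.36 and Asns at -0.36 ± 0.40. The median difference of the members was 0.32, beside 0.0062 for all genes, and 7 of 9 members were above 0. Without the number 3 cultures the median was -0.34, and 5 of 9 were below 0. With the block over all 14 cultures the median was 0.37, beside -0.00027 for all genes, and all 9 were above 0. Since TE is a ratio of the fractions above, it holds the same values again and is not a further measurement of them.

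**Figure D3:**
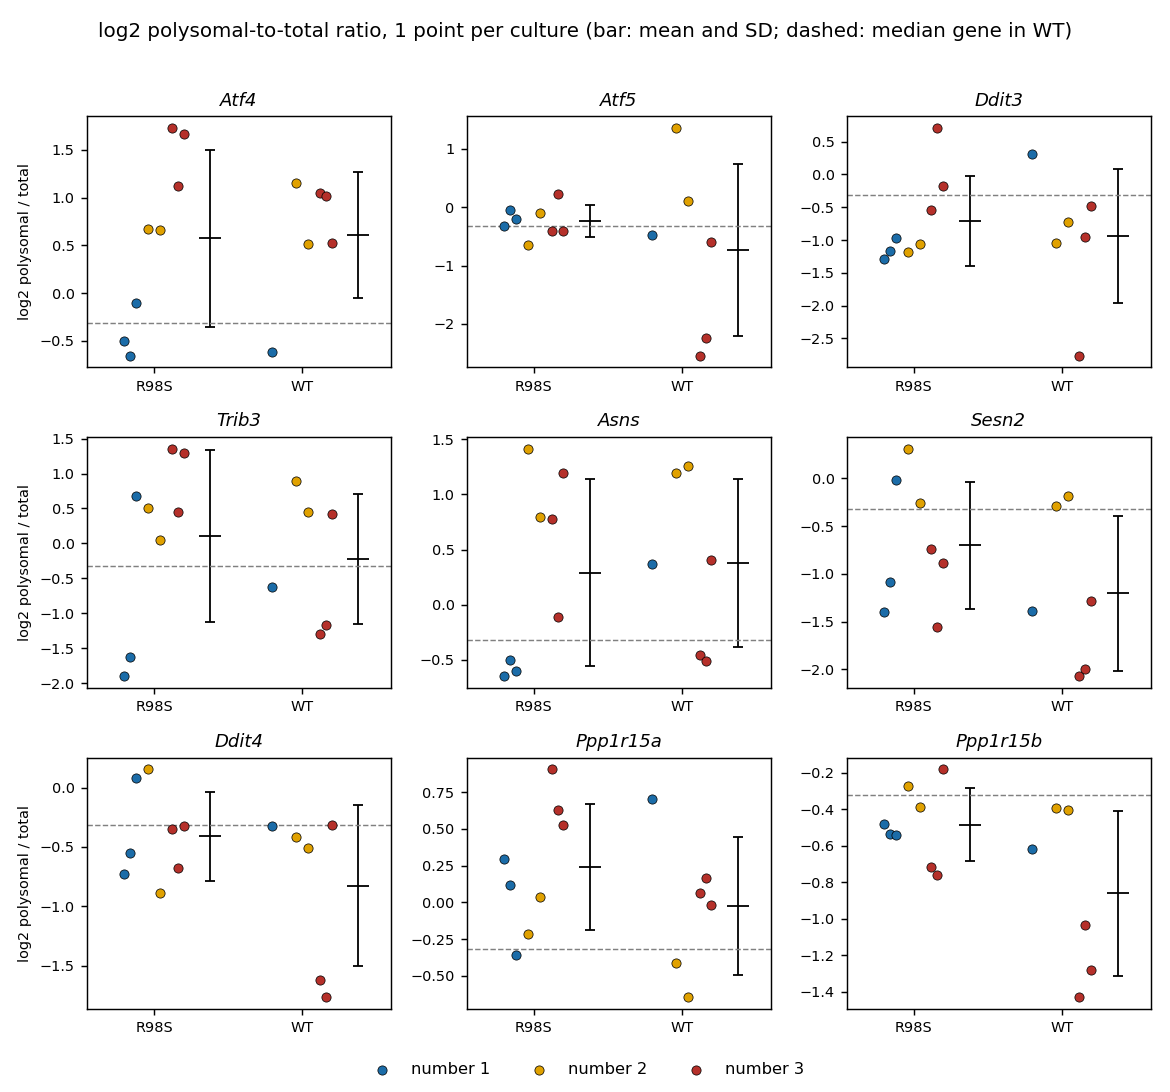
Log2 of polysomal over total normalized reads for the 9 tested members in 8 R98S and 6 WT cultures, 1 point per culture coloured by replicate number, with bars for the mean and SD, and a dashed line at the median gene in WT (-0.32). The WT points of Atf5 reach from -2.54 to 1.36 and those of R98S from -0.64 to 0.23.

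The TE of Atf4 was -0.65, 0.66 and 1.73 as the lowest, median and highest R98S culture and -0.62, 0.77 and 1.16 in WT, on the log2 scale. The number 1 cultures of both genotypes were the lowest. The difference of -0.03 ± 0.40 had a 95% interval from -0.89 to 0.82 (limma adjusted p = 0.992). For Atf5 the values were -0.64, -0.26 and 0.23 in R98S and -2.54, -0.54 and 1.36 in WT, and the WT cultures lay both above and below all R98S cultures. Its difference was 0.49 ± 0.47 (adjusted p = 0.925).

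Trib3 had a TE of -1.90, 0.48 and 1.36 in R98S and -1.29, -0.10 and 0.90 in WT, with a difference of 0.32 ± 0.53 (limma adjusted p = 0.951). Asns had -0.65, 0.33 and 1.42 in R98S and -0.51, 0.38 and 1.25 in WT, with a difference of -0.09 ± 0.40 (adjusted p = 0.984). In both genes the WT range lay within the R98S range.

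Of the remaining members, Ppp1r15b had the difference with the smallest unadjusted p (0.0729), 0.38 ± 0.20 with a 95% interval from -0.04 to 0.79 and a limma adjusted p of 0.843. Its TE was -0.76, -0.51 and -0.18 in R98S and -1.43, -0.82 and -0.39 in WT. In this gene 3 R98S cultures lay above every WT culture and 3 WT cultures lay below every R98S culture. Sesn2, Ddit4, Ppp1r15a and Ddit3 differed by 0.50, 0.42, 0.27 and 0.23, with adjusted p between 0.880 and 0.953.

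**Figure D4:**
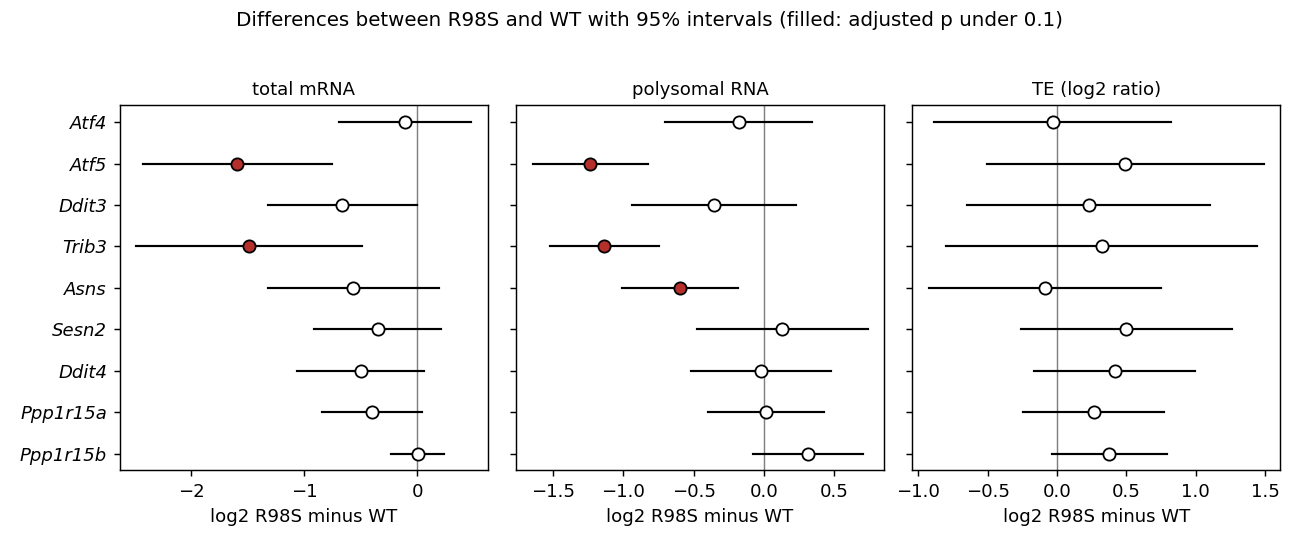
Log2 difference of R98S minus WT with its 95% interval for the 9 tested members in total mRNA, polysomal RNA and TE, filled where the adjusted p is under 0.1. The filled points are Atf5 (-1.59) and Trib3 (-1.49) in total mRNA and Atf5 (-1.24), Trib3 (-1.14) and Asns (-0.60) in polysomal RNA.

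WT cells alone gave a baseline of how these mRNAs are distributed between the fractions. Over 10627 genes the median log2 ratio in the 6 WT cultures was -0.32, with quartiles at -0.93 and 0.26. The 2 tables were normalized separately, so that only the rank of a gene within them is read here. Atf4 had a mean ratio of 0.61 ± 0.66 (SD, n = 6), at percentile 87.1 of all genes, and Asns 0.38 ± 0.76 at percentile 79.4. At the other end stood Sesn2 at -1.2 ± 0.81 and Ddit3 at -0.94 ± 1.02, at percentiles 17.4 and 24.7.

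Between these, Ppp1r15a was at percentile 63.0, Trib3 at 54.5, Atf5 at 32.2, Ddit4 at 28.8 and Ppp1r15b at 27.4. Thus 2 of 9 members were above the upper quartile, 2 were below the lower quartile and 5 were below the median gene. Atf4 and Atf5, the pair with an upstream frame that overlaps the coding sequence, stood on opposite sides of the median. Among all expressed genes with such a frame the median ratio was -0.41, beside -0.24 for 4911 genes with no upstream start codon. The ranks were not stable over the replicate numbers. Atf4 was at percentile 31.5 in the only WT culture of number 1 and at 97.0 and 81.8 in those of numbers 2 and 3, and Atf5 was at 39.5, 95.8 and 14.7.

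Because cultures with the same replicate number resembled each other, the members were also compared by number. These fits were added after the data were seen. In polysomal RNA, Atf4 was higher in the number 3 cultures than in those of numbers 1 and 2, by 0.75 ± 0.13 on the log2 scale (limma adjusted p = 0.000164), Sesn2 was lower at -0.88 ± 0.16 (adjusted p = 0.000278) and Ppp1r15b was lower at -0.40 ± 0.14. These were 3 of 9 members, where 70.8% of all genes were called. For TE 5 of 9 members were called, where the share over all genes was 69.3%. Atf4 was higher by 1.07 and Ppp1r15a by 0.35 in the number 3 cultures, and Atf5, Sesn2 and Ppp1r15b were lower at -0.92, -0.82 and -0.43. These are averages over the genotypes. For Atf5 the mean TE under numbers 1, 2 and 3 was -0.48, 0.74 and -1.80 in WT but -0.19, -0.37 and -0.20 in R98S. In total mRNA only Atf5 was called of the members, higher by 0.91 (adjusted p = 0.0637), where 12.9% of all genes were called. The mean Atf5 level under numbers 1, 2 and 3 was 288.7, 188.7 and 1144 normalized reads in WT and 138.6, 114.3 and 117.6 in R98S, so that the R98S mean was not higher under number 3.

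For every tested member but Ppp1r15b (0.21 within number 1 and -0.20 within number 3), the genotype difference in total mRNA was widest within the number 3 cultures. There limma called 6 of 9 members, all lower in R98S, where 9.4% of all genes were called. They were Trib3 (-3.07), Atf5 (-2.91), Asns (-1.58), Sesn2 (-1.02), Ppp1r15a (-0.83) and Atf4 (-0.80), with adjusted p between 0.0169 and 0.0765. Ddit3 at -1.45 and Ddit4 at -0.90 did not pass. Within number 1 only Atf5 was called (-1.07, adjusted p = 0.0294), where 12.3% of genes were called and 661 of 11133 were called lower. Within number 2 no member passed in limma, where 2.16% of genes were called, and Atf5 at -0.69 and Trib3 at -0.90 had unadjusted p of 0.0224 and 0.0475. The number 2 comparison holds the libraries of R98S clones 13 and 35 that stood toward WT. In the remaining R98S library, clone 11, Atf5 was at 102.9 and Trib3 at 137.1 normalized reads, below the 3 WT libraries of that number (140.6 to 245.9 and 248.6 to 680.5). Atf5 in clones 13 and 35 was below these WT libraries too, at 123.8 and 116.3. Trib3 in clones 13 and 35, at 267.1 and 285.6, was not below all of them.

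**Figure D5:**
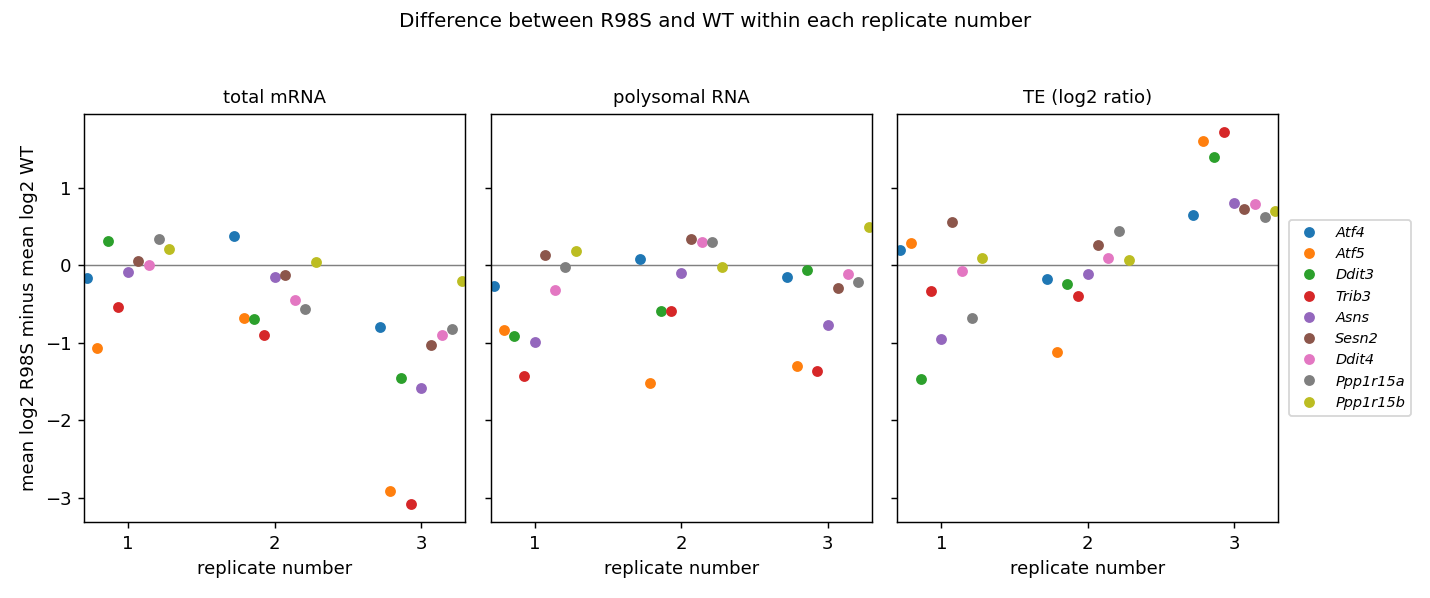
Log2 difference of R98S minus WT within each replicate number for the 9 tested members in total mRNA, polysomal RNA and TE, 1 point per number. In total mRNA the number 3 points lie at -0.20 to -3.07, and in polysomal RNA and TE the number 1 points rest on 1 WT culture and have no test.

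In the single libraries under number 3, Trib3 had 114.4 to 246.8 normalized reads in the 3 R98S libraries and 1893, 1712 and 629.0 in WT clones 28, 29 and 36. Ddit3 had 84.1 to 230.1 in R98S and 818.3, 568.2 and 173.5 in the same WT clones. WT clones 28 and 29 under number 3 were thus the highest total mRNA libraries for Atf5, Trib3 and Asns, and for Ddit3 clone 28 was, with clone 29 next to the WT clone 36 library of number 2 at 569.1. They were also the highest for Ddit4, at 1332 and 1062, with WT clone 36 under number 2 close behind at 1053. In polysomal RNA the same cultures were not set apart in this way. Trib3 there was 772.5, 763.8 and 839.5 in WT clones 28, 29 and 36 under number 3, beside 800.0 in WT clone 29 under number 1.

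Within number 3, limma called Atf5 (-1.31, adjusted p = 0.0134), Trib3 (-1.36, 0.00149) and Asns (-0.78, 0.0408) in polysomal RNA, where 20.9% of all genes were called and 1157 of 10707 were called lower. Within number 2 the polysomal values were -1.52 for Atf5, -0.59 for Trib3 and -0.10 for Asns, and no member was called, where 3.0% of all genes were. The TE differences within number 3 were above 0 for all 9 members, from 0.62 for Ppp1r15a to 1.72 for Trib3, and none was called (adjusted p between 0.157 and 0.316), where 0.263% of all genes were. Within number 2 they were below 0 for 5 of 9, among them Atf5 at -1.11.

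Whether the genotype difference itself changed with the number was tested by an interaction, number 3 against the mean of numbers 1 and 2. In total mRNA the interaction was below 0 for all 9 members, with unadjusted p of 0.00169 for Atf4, 0.00279 for Atf5, 0.00479 for Asns and 0.00683 for Trib3. Limma called 0 of 11133 genes (0.0%), of which 278 had an unadjusted p under 0.05, and no member passed the adjustment. Without the number 2 libraries of R98S clones 13 and 35 it was again below 0 for all 9 and called 0 of 11133 genes (220 with an unadjusted p under 0.05), with unadjusted p of 0.000796 for Atf4, 0.0108 for Atf5, 0.0047 for Asns and 0.0318 for Trib3. In polysomal RNA no member was called, where 0.0187% of genes were. For TE the interaction was above 0 for all 9 members and none was called, where 0.442% of genes were. The largest of them was that of Ddit3 at 2.24 ± 0.62 (adjusted p = 0.17). These interactions were fitted after the pattern was seen and share their libraries with it.

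The rest of the pathway was followed through lists chosen with earlier results known, and differences are log2 values of R98S minus WT. Of 24 genes of the eIF2 axis, 5 were higher and 2 lower in R98S total mRNA, and 1 was higher in polysomal RNA. These shares were no larger than the 30.3% and 13.5% of all genes called in the same comparisons. Eif2ak1, the kinase that responds to heme lack and mitochondrial stress, was higher in both fractions, by 0.64 ± 0.12 in total mRNA (limma adjusted p = 0.000699) and 0.62 ± 0.13 in polysomal RNA (adjusted p = 0.00539). It had 1791 ± 237 normalized reads in R98S (SD, n = 9) and 1162 ± 216 in WT (n = 8). Oma1, the mitochondrial protease upstream of it, was higher by 0.70 ± 0.20 in total mRNA (adjusted p = 0.0156), and Eif2a, an alternative initiation factor, was lower at -0.66 ± 0.11 (adjusted p = 0.000344). The other 3 kinases did not pass in the same limma test. In total mRNA, 28 of the 36 alternative settings did not call Eif2ak2 and 34 of 36 did not call Eif2ak3. In total mRNA Eif2ak2 (PKR), Eif2ak3 (PERK) and Eif2ak4 (GCN2) differed by -0.26, -0.26 and -0.17. With the block Eif2ak3 was called lower in total mRNA (-0.24 ± 0.08, limma adjusted p = 0.0348) and in polysomal RNA (-0.34 ± 0.13, adjusted p = 0.0614), and Eif2ak2 in total mRNA (-0.26 ± 0.11, adjusted p = 0.0852). With the block the list had 7 higher and 4 lower in total and 5 and 5 in polysomal RNA, where 38.4% and 30.9% of all genes were called.

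The targets of ATF4 were followed in 4 lists, and their counts are to be read beside the genes called lower among all genes, 15.8% in total and 5.87% in polysomal RNA, or 19.9% and 15.7% with the replicate block. Of 9 amino acid and one-carbon enzymes tested, 1 was higher and 1 lower in total mRNA, and 1 was higher and 5 were lower in polysomal RNA. The gene that rose was Psph, the last enzyme of serine synthesis, by 1.97 in total and 2.32 in polysomal RNA (limma adjusted p = 1.4e-05 and 4.37e-06). Gpt2, a mitochondrial transaminase, was lower at -1.11 in total and -1.2 in polysomal RNA, and Phgdh, the first enzyme of serine synthesis, was lower at -0.80 in polysomal RNA. With the replicate block 6 of the 9 were lower in total mRNA and 7 in polysomal RNA. The median differences of the list were -0.51 and -0.63, beside 0.0035 and -0.02 for all genes, and that of total mRNA was -0.33 without the number 2 libraries of R98S clones 13 and 35.

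Of 8 amino acid transporters tested, 1 was lower in total mRNA, the carrier of neutral amino acids Slc1a4 at -0.86 ± 0.26, and 1 in polysomal RNA, the glutamine carrier Slc1a5 at -0.58 ± 0.19. With the block these counts were 2 and 4. Of 13 tRNA synthetase and tRNA export genes, Sars was lower at -0.64 ± 0.15 in total mRNA (limma adjusted p = 0.00617), and Gars and Yars were lower at -0.71 and -0.64 in polysomal RNA. With the block 6 of them were lower in total and 5 in polysomal RNA, beside 19.9% and 15.7% of all genes.

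Of 10 other targets of ATF4 and CHOP tested, 4 were lower in total mRNA and 2 in polysomal RNA, beside the same 15.8% and 5.87% of all genes. Eif4ebp1, a brake on cap-dependent initiation, was lower at -0.64 ± 0.15 in total mRNA, and Vegfa was lower at -0.71 ± 0.17. Nupr1, a stress-induced nuclear protein, was low in both genotypes, with 7.82 ± 7.33 normalized reads in R98S and 47.2 ± 50.5 in WT total mRNA, and was lower in both fractions (limma adjusted p = 0.0107 and 0.00548). Herpud1, an ER stress target, was lower at -0.69 ± 0.13 in polysomal RNA. With the block 3 of the 10 were higher and 3 lower in polysomal RNA. Limma called no gene of these 4 lists of ATF4 targets for TE.

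Of 19 chaperones and other genes of the unfolded protein response, 1 was lower in each fraction, a share no larger than the 15.8% and 5.87% of all genes called lower. In both that gene was Xbp1, a transcription factor of this response, lower at -0.62 ± 0.19 in total and -0.64 ± 0.22 in polysomal RNA. Its call was lost in 3 of 36 alternative settings in total mRNA (adjusted p of up to 0.181, without R98S clone 11) and in 18 of 33 in polysomal RNA (up to 0.548, without the number 1 cultures). With the block 2 were lower in total mRNA, where 19.9% of all genes were called lower. In polysomal RNA 1 was then higher and 4 were lower, where 30.9% of all genes were called and 15.7% were called lower. Of 5 other genes known for upstream reading frames, Ifrd1 and Ibtk were lower in total mRNA at -0.58 and -0.32, and Ibtk was lower in polysomal RNA at -0.79 ± 0.12. With the block 4 of these 5 were lower in polysomal RNA, where 15.7% of all genes were called lower.

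Of 13 factors tested that can pair with ATF4, 3 were higher and 2 lower in total mRNA, where 30.3% of all genes were called. Batf2 and Batf were higher by 0.72 and 0.45, and Cebpb was lower at -0.76 (limma adjusted p between 0.0213 and 0.0270). In polysomal RNA 2 were higher, Jun by 1.49 ± 0.22 and Fosl2 by 0.72 ± 0.25, and 0 were lower, beside 4 and 1 with the block, where 13.5% and, with the block, 30.9% of all genes were called. Jun was called in all 33 alternative settings, whereas the call of Fosl2 (limma adjusted p = 0.0916) was lost in 23 of them (up to 0.487, without the number 2 cultures). Of the paralogues of the members, 4 of 6 were tested. Sesn3 was higher by 0.61 in total and 1.54 in polysomal RNA (adjusted p = 0.0841 and 0.0764). Chac2, Sesn1 and Trib1 were not called in either fraction, and in total mRNA they differed by -0.20, -0.06 and 0.14. Without the number 2 libraries of R98S clones 13 and 35, the total mRNA counts became 6 higher and 3 lower for the eIF2 axis, 2 lower for the unfolded protein response and 0 for the paralogues, so that Sesn3 was not called. In that fit 3806 of 11133 genes were called in either direction, and 17.7% of all genes were called lower. The counts of the other lists were the same.

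The genes of the pathway lists named as called in limma without the replicate block were followed over the alternative settings chosen first. Called in every setting that tested them were Eif2a, Eif2ak1, Psph and Ifrd1 in total mRNA. In polysomal RNA these were Jun, Psph, Gpt2, Phgdh, Herpud1, Nupr1 and Ibtk. Each of the others lost its call in at least 1 setting. Their highest adjusted p lay between 0.121 (Eif2ak1 in polysomal RNA) and 0.548 (Xbp1 in polysomal RNA). Of the T cell, myeloid and erythroid marker genes named above, Cd3d, Cd3g and Hba-a1 kept their call in total mRNA in every such setting.

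Genes with profiles most like a member were sought over the 17 total mRNA libraries among 9255 genes, as the smallest root mean square difference of centred log2 values. For Atf4 they were Slc20a1 (0.248), Gars (0.251) and Slc1a5 (0.261), beside a median of 0.667 over all candidates. For Trib3 they were Slc7a11 (0.459), Gpt2 (0.667) and Slc1a4 (0.694), beside 1.31. For Ddit3 they were Ndc80 (0.403), Dapp1 (0.449) and Soat2 (0.451), beside 0.807. These profiles share their libraries, depth and replicate numbers, so that the likeness is a description only.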

How the data were processed

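Reads were aligned by the authors with Bowtie2 and TopHat2 2.0.11 to mm10 and counted per gene with HTSeq. The deposited values are signal in the sense of counts divided by DESeq2 size factors, in 1 table per fraction, the 2 tables normalized separately by the authors. The annotation and the strand setting of the counting are not given in the sources used here. Whole reads were recovered from the deposited values for 100% of values in each library (tolerance 1e-06), and 0 columns were left without a sample.

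Of these values, log2(value + 1) was compared between R98S and WT in limma 3.58.1 (R 4.3.3; lmFit and eBayes with a variance trend) over genes with a mean of at least 10, two-sided, with Benjamini-Hochberg adjustment over all genes tested and a call at an adjusted p under 0.1. TE was the difference of the log2 values of a culture, with the trend fitted on the mean level. A change on the log2(value + 1) scale is understated for low genes. edgeR 4.0.16 and DESeq2 1.42.0 were run on the recovered reads. The fits were tested on simulated data that held no effect of clone or replicate number. Their behaviour under such effects was not tested. The study tested TE with the Babel package, which was not used here. Values were prepared and drawn with Python 3.11.15, pandas 2.3.3, numpy 2.4.6 and matplotlib 3.10.9.

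The replicate numbers paired the cultures. The correlation of same-numbered deviations from the genotype means was, for numbers 1, 2 and 3, 0.62, 0.55 and 0.48 over total mRNA, 0.70, 0.67 and 0.87 over polysomal libraries, and 0.67, 0.54 and 0.81 for TE, so a fit with the replicate block was kept beside the one without it, and it is given with a member or eIF2 kinase where it changed a call, and with the lists as counts. No 2 libraries of a group agreed within sampling noise, the closest having a chi-square of 4.56 per gene. All 10 members are named, and of each list at most the 3 genes with the smallest adjusted p in a comparison, besides the eIF2 kinases and the paralogues. The members and lists were chosen with earlier results of these data known. The alternatives were other pseudocounts (0.5 and 5), filters, scaling by TMM, the block, clone terms and leaving out each number, clone and library. Coordinates and leaders come from GENCODE M21 and promoters from RefSeq (GRCm38.p6).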

Additional observations from a re-analysis of the deposited data

Results flagged for a closer look

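Dixon's criterion was applied on the log2 scale, to log2(value + 1) for reads, and flags about 1 in 20 groups by chance. Of 54 groups of libraries or cultures examined, 3 held a value that stood far from the others of its group by this criterion. The TE of Atf4 was -0.621 in WT clone 29 under number 1, whereas the other 5 WT cultures were between 0.514 and 1.16. Ddit3 in total mRNA had 84.1 normalized reads in R98S clone 13 under number 3, whereas the other 8 R98S libraries had between 175.1 and 368.1. Trib3 in polysomal RNA had 207.5 normalized reads in R98S clone 11 under number 1, whereas the other 7 R98S libraries had between 293.1 and 394.6.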

How the results depend on the processing

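The direction and call of Atf5 in total mRNA and of Atf5 and Trib3 in polysomal RNA held in each of the 36 and 33 alternative settings chosen first. Since numbers paired the cultures, the fit with the replicate block is the closest alternative. It called 3 of 9 members in total mRNA, adding Asns (-0.64), and moved the count over all genes from 1449 to 3307 in polysomal RNA and from 4 to 50 for TE, where DESeq2 called 38, a random effect of clone 80, edgeR 1, TMM scaling 1 and a filter of 50 called 3. The random effect of clone was fitted with negative clone correlations, -0.05 in total mRNA, -0.11 in polysomal RNA and -0.25 for TE. Its median SE for TE was 0.22, beside 0.29 without it, so that fit was the less strict of the pair. With the block, values near 0 turned sign for Sesn2 (-0.0023) and Ppp1r15a (-0.010) in polysomal RNA and for Atf4 (0.29) and Asns (0.12) in TE, and it changed no other call of a member. Clone means called 4 members in total mRNA, where 3132 of 11133 genes were called, and 751 genes in polysomal RNA. TMM scaling gave -0.0025 for Ppp1r15a in polysomal RNA, and a random effect of clone gave 0.022 for Atf4 in TE.

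Fits within 1 number were added after the data were seen. They called 1, 0 and 6 members in total mRNA for numbers 1, 2 and 3, and 0 in polysomal RNA for number 2. Signs turned in total mRNA for Ddit3 (0.32), Sesn2 (0.053), Ddit4 (0.0036) and Ppp1r15a (0.34) within number 1, Atf4 (0.38) within number 2 and Ppp1r15b (-0.20) within number 3. Atf4 was 0.0070 without the number 2 libraries of R98S clones 13 and 35, also added later. In polysomal RNA they turned within number 2 for Atf4 (0.078), Ddit4 (0.31) and Ppp1r15b (-0.025) and within number 3 for Sesn2 (-0.30) and Ppp1r15a (-0.21). In TE they turned within number 2 for Atf5 (-1.11), Ddit3 (-0.24) and Trib3 (-0.40) and within number 3 for Atf4 (0.64) and Asns (0.81).

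Leaving out a number, clone or library gave 1 to 4 called members in total mRNA, the 4 without number 1 (Atf5, Trib3, Ddit3 and Ppp1r15a) and the 1 without number 3. The count over all genes fell to 1338 in total mRNA without number 3 and to 608 in polysomal RNA without number 1. The ranges that crossed 0 were, in total mRNA, -0.43 to 0.26 for Atf4, -0.87 to 0.013 for Asns, -0.58 to 0.023 for Sesn2 and -0.16 to 0.12 for Ppp1r15b. In polysomal RNA they were -0.63 to 0.15 for Ddit3, -0.076 to 0.27 for Sesn2, -0.29 to 0.20 for Ddit4 and -0.15 to 0.25 for Ppp1r15a. In TE they were -0.34 to 0.32 for Atf4, -0.60 to 1.27 for Atf5, -0.65 to 0.74 for Ddit3, -0.70 to 0.87 for Trib3 and -0.85 to 0.44 for Asns. The WT polysomal-to-total ratio of the median member ranged from -0.968 to -0.119. For these changes the cause was not tested.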
